A study of Mus musculus with 6 samples.

Results

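The subunits of the Polycomb repressive complexes and *Asxl1* were followed in mouse acute myeloid leukemia (AML) cells with and without *Phf6*. In all, 10 of the 54532 genes of the count table were chosen by name for their role in the complexes, with earlier results of these data known: *Ezh1*, *Ezh2*, *Eed*, *Suz12* and *Jarid2* of Polycomb repressive complex 2 (PRC2), *Bmi1*, *Ring1*, *Rnf2* and *Cbx7* of Polycomb repressive complex 1 (PRC1), and *Asxl1*. Leukemia was driven in both groups by RUNX1-ETO9a (RE9a), a shortened form of the RUNX1-ETO fusion protein, delivered with GFP by a retrovirus into fetal liver cells and passed through male recipient mice. The 3 *WT Phf6,RE9a* libraries (replicates 1, 2 and 3) come from cells with a floxed *Phf6* allele and no Cre, and the 3 *VC Phf6,RE9a* libraries (replicates 11, 12 and 13) from cells in which *Vav1-Cre*, active in blood cells, acts on the same allele. GFP-positive cells were sorted from bone marrow. The male mice were 6 to 8 weeks old, with no age or passage given for single libraries. Nothing in the labels tells whether the libraries of one group are separate leukemias, so the p-values measure only the spread between them, which may be technical. *WT Phf6,RE9a* libraries are called control and *VC Phf6,RE9a* libraries knockout from here on.

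PRC2 methylates histone H3 through EZH2 or its paralog EZH1, which need EED and SUZ12 for activity, while JARID2 helps to place and stimulate the complex. PRC1 joins a RING protein (RING1 or RNF2) with 1 of the PCGF proteins, of which BMI1 is one, and attaches ubiquitin to histone H2A. In canonical PRC1 a CBX protein such as CBX7 reads the mark that PRC2 leaves, whereas variant PRC1 carries RYBP or YAF2 in its place. ASXL1 works on the opposite side, as the partner that the deubiquitinase BAP1 needs to take ubiquitin off histone H2A. In blood, BMI1 is known for the self-renewal of stem cells, and *EZH2* and *ASXL1* are recurrently mutated in myeloid neoplasms.

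Total counts per library ran from 15675358 to 16817994, and 3 counts, up to which a gene with 0 counts may lie, were worth no more than 0.204 CPM (counts scaled to a common library size, counting error only). *Phf6* (chromosome X, 52912266 to 52956943) had 1044, 827 and 1142 counts in control cells against 388, 314 and 331 in knockout cells (edgeR log2 fold change -1.66, standard error 0.13, adjusted p = 9.32e-05). The deleted exons could not be told from the rest in counts per gene. The groups were far apart, with component 1 of a principal component analysis holding 81.0% of the variance. *Ptprc* (CD45), *Spi1* and *Runx1*, which mark the blood lineage, were read in every library (log2 fold change 0.86, 0.20 and -0.27, adjusted p = 0.167, 0.207 and 0.0547 from edgeR, with 0.0281 for *Runx1* from DESeq2). *Kit* and *Cd34*, taken here as markers of immature cells, were lower in knockout cells (log2 fold change -3.15 and -4.63, adjusted p = 7.75e-05 and 0.00347 from edgeR). Of 6 mast cell and basophil genes 5 were lower as well, and which cells the *Kit* and *Cd34* reads came from was not tested. *Itgam* (CD11b), a marker of maturing myeloid cells, was higher with overlapping groups (2.31, adjusted p = 0.0272 from edgeR), and no longer passed when any one of control replicates 1 and 2 and knockout replicates 11 and 12 was left out. Summed levels of other cell types' markers are given with the proliferation genes, and their part in the results was not tested.

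To ask whether loss of *Phf6* went with different RNA levels of Polycomb subunits, the libraries were compared gene by gene. The PRC1 genes *Bmi1*, *Rnf2* and *Cbx7* and the gene *Asxl1* differed between the genotypes, and 0 of the 5 PRC2 genes passed, by edgeR or by DESeq2, nor did any at an unadjusted p under 0.05. *Bmi1* fell 1.85-fold, *Rnf2* fell 1.75-fold and *Asxl1* fell 1.30-fold in knockout cells, while *Cbx7* rose 2.21-fold. All 10 genes had enough counts to be tested, and 4 of them passed an adjusted p under 0.05, 1 higher and 3 lower. Over the 14169 genes tested, 44.2% passed (21.5% higher and 22.7% lower), so 4 of 10 is near the background share. At an unadjusted p under 0.05 the same number, 4 of 10, stood against 52.1% of all genes. The median log2 fold change was -0.18 over the 10 genes and 0.013 over all genes tested. Groups of 3 libraries did not overlap for 5 of the 10 genes (*Suz12* and the 4 that passed), against 57.3% of all genes tested. Of these 5, 1 was higher and 4 were lower in the knockout, against 28.9% and 28.4% of all genes. In these bulk samples, fewer cells of a type and less RNA per cell cannot be told apart. Scaling by total counts alone, an alternative added after the data were seen, moved the median of all genes from 0.013 to 0.16, and at that scaling the share of higher genes among those that passed went from 48.7% to 62.1%. At that scaling 2 of the 10 genes were higher and 3 lower, against 28.6% and 17.5% of all genes (46.0% in either direction). *Bmi1*, *Rnf2*, *Cbx7* and *Asxl1* kept direction and call under each of the 13 other fits, *Asxl1* narrowly at total-count scaling (log2 fold change -0.23, adjusted p = 0.0497).

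**Figure D1:**
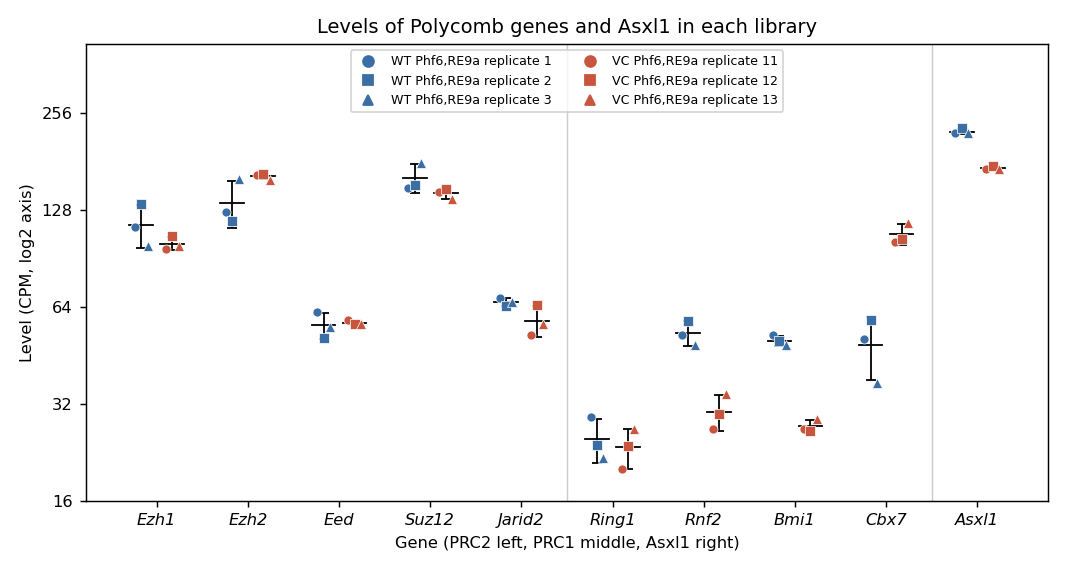
Level of each gene in each library in CPM (log2 axis), with *WT Phf6,RE9a* libraries in blue and *VC Phf6,RE9a* libraries in red, where long bars mark the mean and error bars the SD of 3 libraries. The 3 red points of *Rnf2*, *Bmi1* and *Asxl1* lie under all blue points and those of *Cbx7* above them, whereas both groups overlap for *Ezh1*, *Ezh2*, *Eed*, *Jarid2* and *Ring1*.

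*Bmi1*, the PCGF subunit of canonical PRC1, lies on chromosome 2 of GRCm38 from 18677018 to 18686629 (plus strand). It had 804, 738 and 803 counts in the controls and 453, 452 and 482 in the knockouts. The 3 knockout libraries were close to each other and well under every control library. The mean level fell from 50.3 ± 1.81 to 27.2 ± 1.23 CPM (SD, n = 3), which edgeR put at -0.88 on the log2 scale (95% interval -1.09 to -0.67, adjusted p = 0.000278). Over the other fits it ran from -0.92 to -0.73. No other annotated gene overlaps *Bmi1*.

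*Rnf2*, which encodes RING1B, the main ubiquitin ligase of PRC1, lies on chromosome 1 from 151458004 to 151500955 (minus strand). Its counts were 809, 856 and 804 in control and 453, 510 and 577 in knockout cells. All 3 knockout libraries were again under the controls, with replicate 13 the highest of them. The mean level fell from 53.1 ± 4.73 to 30.2 ± 3.80 CPM (SD, n = 3), or -0.81 as edgeR's log2 fold change (95% interval -1.10 to -0.53, adjusted p = 0.00162). Its end shares 158 exon bases (3.83% of its exons) with *Trmt1l* on the other strand, and the kit named in the labels does not mark strand. *Trmt1l* itself had a log2 fold change of -0.24 (adjusted p = 0.182 from edgeR).

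*Ring1*, the paralog of *Rnf2* with the same ligase role, lies on chromosome 17 from 34020792 to 34024680 (minus strand). It had 449, 351 and 358 counts in the controls and 340, 405 and 449 in the knockouts. The highest control and the highest knockout library had the same count, and the groups overlapped. The log2 fold change was -0.085 (95% interval -0.46 to 0.29, adjusted p = 0.698 from edgeR), and its sign turned in 3 of the other fits.

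*Cbx7*, whose chromodomain binds the PRC2 mark and which is known as a CBX protein of stem cells, lies on chromosome 15 from 79915807 to 79971119 (minus strand). It had 785, 857 and 612 counts in the controls and 1731, 1790 and 1963 in the knockouts. Each knockout library held more than the highest control library, and control replicate 3 was the lowest of the 6. The mean level rose from 48.7 ± 10.7 to 107.7 ± 7.80 CPM (SD, n = 3), a change of 1.15 in log2 units (95% interval 0.77 to 1.52, adjusted p = 0.00112). With single libraries left out it ran from 0.97 to 1.28.

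*Cbx7* ends tail to tail with *Apobec3*, an antiviral deaminase gene on the other strand, and the pair shares 100 exon bases (1.54% of the exons of *Cbx7*). *Apobec3*, picked with its values in view, rose from 137 ± 7.87 to 401 ± 32.4 CPM (SD, n = 3), which edgeR put at 1.56 on the log2 scale (adjusted p = 4.39e-05). How many of the reads counted for *Cbx7* came from the shared bases cannot be told from counts per gene, and the part of *Apobec3* in the *Cbx7* result was not tested.

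*Asxl1* lies on chromosome 2 from 153345829 to 153404007 (plus strand). It had 3416, 3389 and 3666 counts in the controls and 2904, 3015 and 2882 in the knockouts. The spread within each group was small, and all knockout libraries were under all control libraries. The mean level fell from 224.5 ± 4.68 to 172.8 ± 2.50 CPM (SD, n = 3), or -0.38 as edgeR's log2 fold change (95% interval -0.55 to -0.21, adjusted p = 0.00455). Its start shares 197 exon bases (2.65% of its exons) with the antisense transcript *2500004C02Rik*. That transcript, picked with its values in view, rose from 2.68 to 4.76 CPM (log2 fold change 0.83, adjusted p = 0.0408 from edgeR), and lost the threshold with no count filter and in each fit that left out a library.

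The promoters of the 4 genes that passed are shown because *Bmi1* and *Rnf2* fell and *Cbx7* rose within 1 complex. Each is the stretch of 250 bases before the RefSeq start (GRCm38.p6), read 5′ to 3′ on the strand of the gene, with capitals marking matches on either strand to the RUNX motif TGTGGT, the E-box CACGTG, the E2F motif GCGGGAA or the NF-κB consensus. No matches overlapped in these windows.
Bmi1, chr2:18676768-18677017, plus strand: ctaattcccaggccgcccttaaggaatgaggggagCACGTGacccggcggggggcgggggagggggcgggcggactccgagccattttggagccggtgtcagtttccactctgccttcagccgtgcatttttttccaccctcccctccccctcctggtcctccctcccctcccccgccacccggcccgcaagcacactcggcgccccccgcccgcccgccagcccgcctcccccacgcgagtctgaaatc
Rnf2, chr1:151500992-151501241, minus strand: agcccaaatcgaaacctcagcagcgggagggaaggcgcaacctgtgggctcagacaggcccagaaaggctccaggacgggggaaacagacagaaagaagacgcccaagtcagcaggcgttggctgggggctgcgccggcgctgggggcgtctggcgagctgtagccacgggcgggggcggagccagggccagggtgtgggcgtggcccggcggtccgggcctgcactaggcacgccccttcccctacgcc
Cbx7, chr15:79932647-79932896, minus strand: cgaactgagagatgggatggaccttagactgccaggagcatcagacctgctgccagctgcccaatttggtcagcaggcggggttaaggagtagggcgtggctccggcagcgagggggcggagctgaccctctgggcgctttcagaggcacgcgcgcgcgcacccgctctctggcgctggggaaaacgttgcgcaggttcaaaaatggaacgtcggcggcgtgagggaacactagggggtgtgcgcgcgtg
Asxl1, chr2:153345580-153345829, plus strand: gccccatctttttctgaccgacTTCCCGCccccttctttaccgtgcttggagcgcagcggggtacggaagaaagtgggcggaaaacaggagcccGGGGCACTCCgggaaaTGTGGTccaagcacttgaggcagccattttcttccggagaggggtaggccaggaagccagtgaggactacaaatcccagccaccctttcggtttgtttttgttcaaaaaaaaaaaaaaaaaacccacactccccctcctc
The *Bmi1* window held 1 E-box, and the *Asxl1* window held 1 RUNX, 1 E2F and 1 NF-κB match. No match to these letters was in the *Rnf2* and *Cbx7* windows. Windows of genes that did not pass held such matches too: RUNX in *Ezh2* and *Jarid2*, E2F in *Suz12*, and NF-κB in *Jarid2* and *Ring1*. Those of *Ezh1* and *Eed* held none. Among 32851 mouse promoters of this length, 14.0% held the RUNX motif, 6.02% the E-box, 3.82% the E2F motif and 7.25% the NF-κB consensus. The windows of *Bmi1*, *Rnf2*, *Cbx7* and *Asxl1* had 21, 20, 23 and 11 CpG dinucleotides, against a median of 6 over all promoters. The *Cbx7* gene as deposited starts farther upstream than this RefSeq start. For *Rnf2* the RefSeq start lies upstream of the gene as deposited, which starts at 151500955. The bases checked just after that RefSeq start were in no GENCODE M21 transcript of *Rnf2*, unlike those of the other windows shown.

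The PRC2 genes were compared next. *Ezh2*, the catalytic subunit known to be higher in dividing cells, lies on chromosome 6 from 47530139 to 47595341 (minus strand). It had 1942, 1741 and 2646 counts in the controls and 2790, 2851 and 2681 in the knockouts. The knockout libraries were alike, and of the controls only replicate 3 reached up to them. The level was 134.8 ± 22.3 CPM in control and 163.4 ± 3.61 CPM in knockout cells (SD, n = 3). The log2 fold change of 0.28 (95% interval -0.0017 to 0.56, adjusted p = 0.0976 from edgeR) did not pass. Without control replicate 3 it was 0.41 and passed (adjusted p = 0.00664), as it did at total-count scaling (0.42, adjusted p = 0.0392).

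*Ezh1*, the paralog that is the catalytic subunit of resting cells, lies on chromosome 11 from 101191115 to 101226463 (minus strand). It had 1742, 1974 and 1639 counts in the controls and 1647, 1821 and 1664 in the knockouts. In CPM, knockout replicates 11 and 13 (97.2 and 98.9) were under all controls (113, 134 and 99.2), and replicate 12 (106) was within their range. Its log2 fold change of -0.20 (95% interval -0.47 to 0.076, adjusted p = 0.214 from edgeR) passed, among the fits run, only without control replicate 3 (-0.30, adjusted p = 0.0469).

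*Suz12*, the scaffold of PRC2, lies on chromosome 11 from 79993106 to 80034123 (plus strand) and had 2317, 2261 and 2971 counts in the controls and 2469, 2552 and 2329 in the knockouts. In CPM the knockout libraries were under the controls by a narrow margin, from 161 ± 16.2 to 144 ± 5.32 (SD, n = 3), with a log2 fold change of -0.16 (95% interval -0.38 to 0.058, adjusted p = 0.206 from edgeR). *Eed*, which binds the methyl mark, lies on chromosome 7 from 89954654 to 89980983 (minus strand) and had 950, 756 and 917 counts against 985, 971 and 954. The groups of *Eed* overlapped (log2 fold change 0.025, 95% interval -0.19 to 0.24, adjusted p = 0.851 from edgeR). *Jarid2* lies on chromosome 13 from 44729474 to 44921643 (plus strand) and had 1055, 949 and 1093 counts against 887, 1114 and 954. Knockout replicate 12 of *Jarid2* was within the control range and the other two were under it (log2 fold change -0.19, 95% interval -0.43 to 0.037, adjusted p = 0.153 from edgeR). *Ezh2*, *Suz12* and *Eed* share 2.61%, 3.60% and 6.82% of their exon bases with genes on the other strand that had at most 40 counts in any library.

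**Figure D2:**
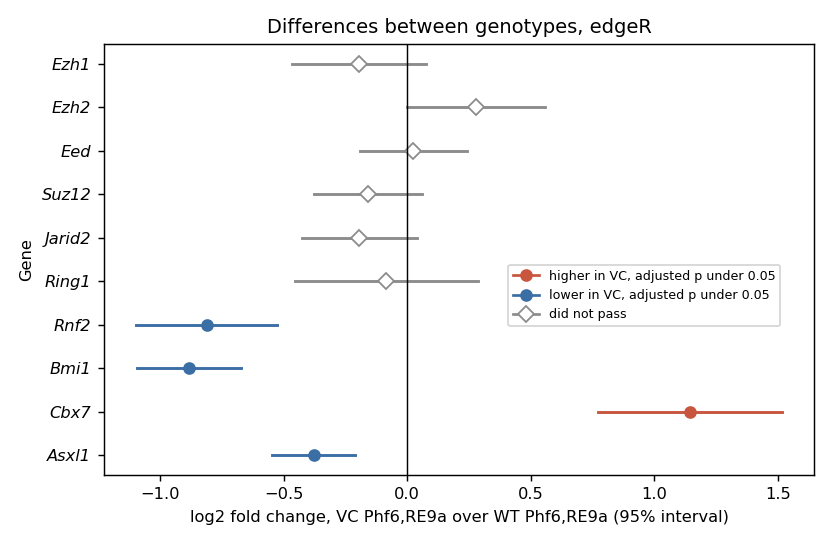
Log2 fold change, knockout (*VC Phf6,RE9a*) against control (*WT Phf6,RE9a*), for each gene (points) with the 95% interval from edgeR (lines), where filled circles passed an adjusted p under 0.05 and open diamonds did not. *Bmi1* and *Rnf2* lie at -0.88 and -0.81, *Asxl1* at -0.38 and *Cbx7* at 1.15, and the intervals of the 5 PRC2 genes and *Ring1* include 0.

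Levels of different genes were set side by side per length, in the deposited FPKM, which divides counts by gene length and library size. That length takes in all annotated exon bases of a gene (4127 for *Rnf2* and 9715 for *Jarid2*). The order of genes and the shares of paralogs below thus depend on which transcripts are annotated. In control cells *Suz12* had the highest level at 32.4 ± 3.11 FPKM, followed by *Asxl1* at 30.0 ± 0.598 FPKM (SD, n = 3), and both overlapped. A gap set them off from *Ezh2* (20.05 FPKM), which was followed by *Ezh1* (15.4), *Eed* (14.6), *Rnf2* (12.8) and *Bmi1* (12.6), and from *Ezh2* to *Bmi1* each range overlapped that of the next gene. *Ring1* (7.63 FPKM), *Cbx7* (7.46) and *Jarid2* (6.79) came last and overlapped each other. In knockout cells *Suz12* was again the highest at 28.8 ± 1.22 FPKM, followed by *Ezh2* (24.2) and *Asxl1* (22.9), whose ranges overlapped. *Cbx7* followed at 16.4 ± 1.11 FPKM (SD, n = 3), apart from *Asxl1* above and from *Eed* (14.7) below, and *Ezh1* (13.4) came next. *Rnf2* (7.23 FPKM), *Ring1* (7.14), *Bmi1* (6.77) and *Jarid2* (5.89) closed the order, each overlapping the next.

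Paralogs compete for the same place in a complex, but only RNA was read here, and proteins and the make-up of complexes were not measured. The share of each gene in the summed FPKM of its paralogs was compared by exact permutation (2-sided, 3 libraries against 3, smallest possible p 0.1). These p-values were adjusted over the 5 families tested. *Rnf2* took 58.6%, 65.7% and 63.8% of *Ring1* plus *Rnf2* in control and 51.1%, 49.7% and 50.2% in knockout cells. Without *Phf6* both RING genes were thus at nearly equal FPKM, and the groups did not overlap (exact p = 0.1, adjusted p = 0.167). The summed FPKM of both went from 20.4 ± 1.86 to 14.4 ± 1.86 (SD, n = 3).

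*Bmi1* took 37.9%, 35.1% and 32.6% of the summed FPKM of the 6 PCGF genes in control and 19.4%, 19.1% and 20.7% in knockout cells (exact p = 0.1, adjusted p = 0.167). The sum itself was 35.8 ± 1.28 FPKM in control and 34.3 ± 0.152 FPKM in knockout cells (SD, n = 3). *Pcgf3*, the PCGF subunit of a variant PRC1, went from 11.9 ± 0.632% to 23.2 ± 2.32% of the sum (SD, n = 3).

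*Ezh2* took 55.4%, 49.6% and 64.3% of *Ezh1* plus *Ezh2* in control and 65.4%, 63.6% and 64.2% in knockout cells. Control replicate 3 was within the knockout range (exact p = 0.3, adjusted p = 0.375). The share of *Asxl1* among the *Asxl* genes was 68.5 ± 4.45% in control and 68.2 ± 0.663% in knockout cells (SD, n = 3, exact p = 1), next to *Asxl2*, whose log2 fold change was -0.37 (adjusted p = 0.0886 from edgeR). *Asxl3* had 0 counts in all libraries.

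**Figure D3:**
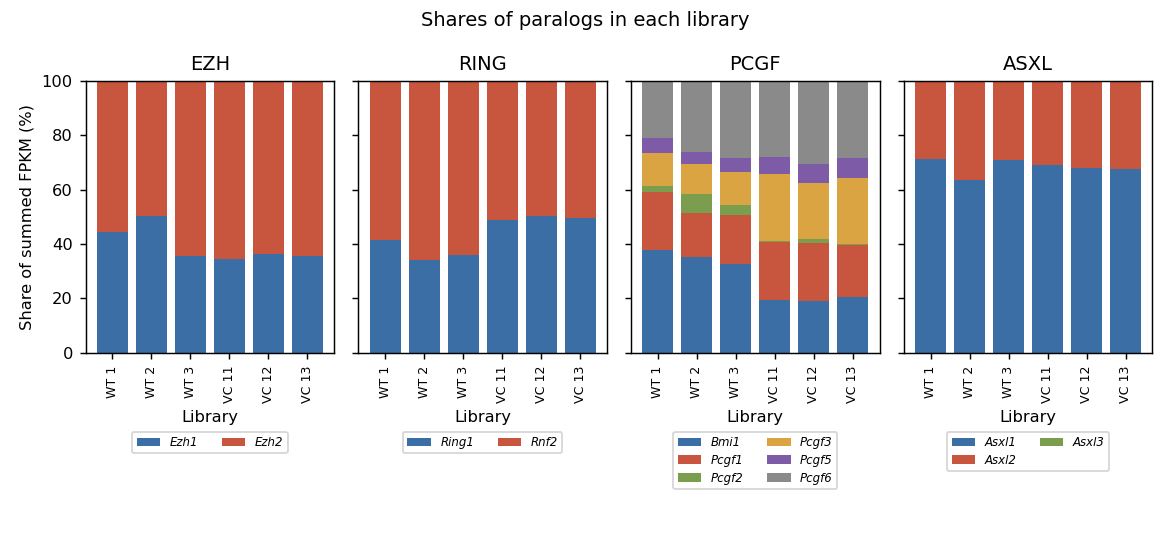
Share of the summed FPKM (in percent, bars starting at 0) taken by each paralog of the EZH, RING, PCGF and ASXL genes in each of the 6 libraries. *Rnf2* went from a mean of 62.7% to 50.4% and *Bmi1* from 35.2% to 19.7%, while *Asxl1* was at 68.5% and 68.2%.

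The rest of the complexes was described with 7 lists of subunits and partners, which hold 66 genes, the 10 above included. Among the 60 tested, 4 were higher and 14 lower in knockout cells at edgeR's adjusted p under 0.05. That is 30.0%, against 44.2% of all genes tested. Without the 10 genes described above, 3 of 50 were higher and 11 lower (28.0%), with a median log2 fold change of -0.084. At total-count scaling 12 of the 60 were higher, against 28.6% of all genes. Without control replicate 3 the number higher over the lists was 8, and no share over all genes is given for that fit.

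In the core of PRC2, 0 of 6 genes passed with edgeR or with DESeq2, against 44.2% of all genes tested with edgeR. At an unadjusted p under 0.05 the number was 0 with both tools, against 52.1% of all genes with edgeR. *Ezh2* was close to that line (unadjusted p = 0.0511 from edgeR). The histone-binding subunits had log2 fold changes of 0.086 (*Rbbp4*, adjusted p = 0.452) and 0.11 (*Rbbp7*, adjusted p = 0.559, the highest of the list in FPKM). Of 8 accessory genes tested, 2 were lower with edgeR and 1 with DESeq2, and 0 were higher with either tool, against 22.7% of all genes lower and 21.5% higher with edgeR. *Phf1*, a Tudor protein that brings PRC2 to chromatin, fell from 72.7 ± 11.3 to 41.5 ± 0.872 CPM (SD, n = 3), a change of -0.81 in log2 units (adjusted p = 0.00166). *Epop* fell by 1.47 on the log2 scale (adjusted p = 0.0294) with only 14, 18 and 14 counts in the controls and 3, 7 and 8 in the knockouts, and its call was lost with DESeq2 (adjusted p = 0.0921), with no count filter (adjusted p = 0.0604) and in 4 of the 6 fits that left out a library. *Epop* also cleared the count filter only through the controls, so its call was partly built in. *Mtf2*, the paralog of *Phf1*, had a log2 fold change of 0.20 (adjusted p = 0.144).

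In the core of PRC1, 5 of 8 genes passed, against 44.2% of all genes tested, of which *Pcgf3* and *Pcgf5* were higher and *Bmi1*, *Rnf2* and *Pcgf2* lower. *Pcgf3* had 618, 564 and 733 counts in the controls and 1385, 1169 and 1369 in the knockouts (edgeR log2 fold change 0.91, standard error 0.11, adjusted p = 0.000513). *Pcgf5*, the partner paralog of *Pcgf3* and named after its values were seen, rose by 0.42 (adjusted p = 0.0295) and lost the threshold in 7 of the other fits. *Pcgf2*, the closest paralog of *Bmi1*, had 45, 128 and 77 counts in the controls and 5, 32 and 7 in the knockouts (edgeR log2 fold change -2.64, adjusted p = 0.0180). *Pcgf2* cleared the count filter only through the controls, so its call was partly built in. The *Pcgf2* libraries spread widely within both groups, and without knockout replicates 11 or 13 the gene no longer passed (adjusted p = 0.0544 and 0.0550), whereas without replicate 12 the log2 fold change was -3.90.

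Among canonical PRC1 genes, *Cbx7* was higher and *Cbx6* was lower. *Cbx6* had a log2 fold change of -1.08 (adjusted p = 0.0367), which was -0.62 and did not pass without control replicate 2 (adjusted p = 0.0761), the library with 548 counts against 220 and 333 in the other two. It also lost the threshold without knockout replicate 11 or 12 and at total-count scaling (adjusted p = 0.116, 0.107 and 0.0558). With limma it did not pass on log2(FPKM + 1), at -0.61 (adjusted p = 0.0762), or on log2(FPKM + 0.1), at -0.94 (adjusted p = 0.0665). *Phc1*, a polyhomeotic subunit, had a log2 fold change of -0.24 (adjusted p = 0.0687). *Cbx2*, *Scmh1* and *Scml2* had too few counts to be tested.

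Of 16 variant PRC1 genes tested, 1 was higher and 3 were lower, against 21.5% and 22.7% of all genes. *Bcorl1*, the paralog of the corepressor *Bcor*, had 530, 363 and 587 counts in the controls and 127, 145 and 139 in the knockouts (edgeR log2 fold change -1.97, standard error 0.17, adjusted p = 0.000156). *Yaf2*, which takes the place of a CBX protein next to RING1 or RNF2, fell from 26.7 ± 3.62 to 7.96 ± 2.47 CPM (SD, n = 3), or -1.75 as edgeR's log2 fold change (adjusted p = 0.000885). *Fbrs* fell by 0.56 on the log2 scale (adjusted p = 0.00974), and *L3mbtl2*, a subunit with malignant brain tumor repeats, rose by 0.74 (adjusted p = 0.00150). *Skp1a*, the highest of the list in FPKM, had a log2 fold change of 0.076 (adjusted p = 0.580).

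Of 10 tested genes of the BAP1 complex, called PR-DUB, 3 were lower and 0 higher with edgeR and with DESeq2 (5 and 0 at an unadjusted p under 0.05). Of all genes tested, 22.7% were lower and 21.5% higher, and 52.1% had an unadjusted p under 0.05 in either direction. *Bap1*, the deubiquitinase itself, had 1755, 1496 and 1792 counts in the controls and 1224, 1070 and 867 in the knockouts (edgeR log2 fold change -0.80, standard error 0.13, adjusted p = 0.00208). *Mbd5* fell by 0.52 on the log2 scale (adjusted p = 0.0106, and 0.0582 with limma on log2(FPKM + 0.1)). Its paralog *Mbd6* had a log2 fold change of -0.24 (adjusted p = 0.0519) and passed in 5 of the other fits. *Ogt*, the highest of the list in FPKM, had a log2 fold change of 0.12 (adjusted p = 0.539). Among 5 enzymes that remove Polycomb marks 1 passed, against 44.2% of all genes tested. *Kdm6b*, a histone H3 demethylase, fell from 505 ± 165 to 264 ± 31.9 CPM (SD, n = 3), a change of -0.93 in log2 units (adjusted p = 0.0143, and 0.0534 without knockout replicate 12). *Kdm6a* (-0.18, adjusted p = 0.110), *Usp21* (0.24, adjusted p = 0.140) and *Mysm1* (-0.11, adjusted p = 0.401) did not pass.

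**Figure D4:**
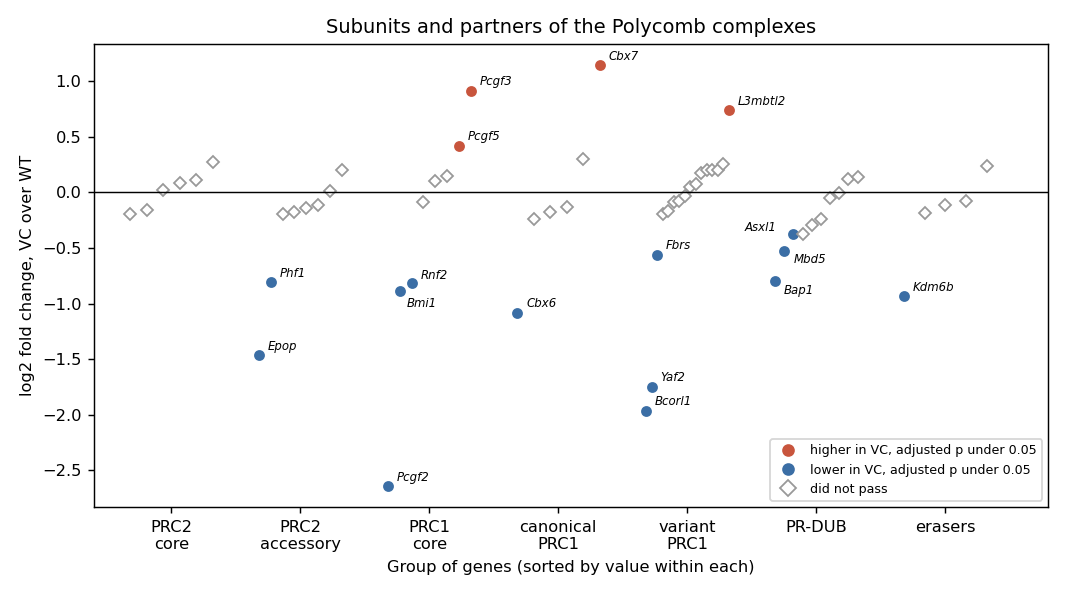
Log2 fold change, knockout (*VC Phf6,RE9a*) against control (*WT Phf6,RE9a*), for 59 of the 60 tested genes of the 7 lists, sorted within each list, where filled circles passed an adjusted p under 0.05 and are named. The core of PRC2 has 0 filled points of 6, the core of PRC1 has 2 higher and 3 lower of 8, and PR-DUB has 3 lower of 10. Of all genes tested, 21.5% were higher and 22.7% lower.

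The gene nearest to each of the 10 in its profile over the 6 libraries was sought among the 59 other tested genes of the 7 lists by the Euclidean distance of log2 CPM, centered on each gene's mean. *Bmi1* and *Rnf2* were nearest to each other (distance 0.27), with *Phf1* of PRC2 second for both at 0.30. These distances include the difference between the groups, so a short one can come from a like fold change. *Cbx7* was nearest to *Pcgf3* at a distance of 0.73, the longest of the 10. *Asxl1* was nearest to *Mbd6* (0.25) and *Ezh2* to *Cbx3* (0.15), which encodes a heterochromatin protein also found in variant PRC1. *Ezh1* was nearest to *Mga*, *Eed* to *Foxk2*, *Suz12* to *Wdr5*, *Jarid2* to *Lcorl* and *Ring1* to *Aebp2*, at distances from 0.10 to 0.27.

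Genes listed here as targets of Polycomb were read as a description of the same libraries, and whether Polycomb silences them in these cells was not measured. Of 10 such genes 6 were tested, 4 were higher and 1 was lower in knockout cells, against 21.5% and 22.7% of all genes. *Cdkn2a*, the cell cycle inhibitor locus that BMI1 is known to repress, had 440, 89 and 134 counts in the controls and 43, 43 and 36 in the knockouts. Like *Bmi1*, it was lower in each knockout library than in every control library (log2 fold change -2.57, adjusted p = 0.00978 from edgeR), and without control replicate 1 the log2 fold change was -1.57 (adjusted p = 0.00615). *Cdkn2b* beside it had a log2 fold change of -0.61 (adjusted p = 0.167).

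*Hmga2*, a chromatin protein of fetal and stem cells, had 20, 8 and 10 counts in the controls and 234, 298 and 321 in the knockouts (edgeR log2 fold change 4.35, adjusted p = 0.000102). *Pax6* rose by 1.10 (adjusted p = 0.000416) and *Cdkn1c*, a further cell cycle inhibitor, by 2.23 (adjusted p = 0.0226) with 1, 11 and 15 counts in control cells. *Hmga2* and *Cdkn1c* cleared the count filter only through the knockout libraries, so their calls were partly built in. *Igf2bp3*, named after its values were seen, had 36, 32 and 184 counts against 285, 303 and 353 (log2 fold change 1.82, adjusted p = 0.0371). Without control replicate 3 its log2 fold change was 3.02, and it lost the threshold without any one of the other libraries, as *Cdkn1c* did without knockout replicates 12 or 13 (adjusted p = 0.0636 and 0.0646). *Lin28b* and *Gata4* had 0 counts in all libraries.

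Of 40 rows for genes of the HOX clusters, the standard targets of Polycomb, 35 had too few counts to be tested and 25 of these were at 0 in every library. The 5 tested genes, named after their values were seen, all passed, against 44.2% of all genes tested. *Hoxb13*, with 56, 126 and 110 counts in the controls and 7, 22 and 2 in the knockouts, cleared the count filter only through the controls. Its call was thus partly built in, and the share of all genes is not a like-for-like measure for it. *Hoxc4*, *Hoxc5* and *Hoxc6* were higher in knockout cells, with log2 fold changes of 1.21, 1.54 and 1.41 (adjusted p = 0.00168, 0.00116 and 0.0264 from edgeR). *Hoxc9* and *Hoxb13* were lower, with log2 fold changes of -1.64 and -3.36 (adjusted p = 0.00467 and 0.00561). *Hoxc6* lost the threshold without knockout replicate 11 or 12 (adjusted p = 0.0621 and 0.0954). The *Hoxc5* gene as deposited spans *Hoxc6* and *Hoxc9*, so that reads of these genes cannot be assigned with certainty. Over both target lists 7 of 11 tested genes were higher, against 21.5% of all genes. Without knockout replicate 12 the number was 4, and no share over all genes is given for that fit.

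Proliferation genes are given beside *Ezh2*, since *EZH2* is known to follow cell division. Of 20 such genes, 12 were higher and 0 lower in knockout cells at edgeR's adjusted p under 0.05 (16 and 0 unadjusted, 13 and 0 with DESeq2), with a median log2 fold change of 0.47. Of all genes tested, 21.5% were higher and 22.7% lower, and 52.1% had an unadjusted p under 0.05 in either direction. *E2f2* rose by 1.54 (adjusted p = 0.000111), *Birc5* by 0.79, *Plk1* by 0.81 and *Mki67* by 0.57 (adjusted p = 0.0543 without knockout replicate 12), while *Pcna* had a log2 fold change of -0.084 (adjusted p = 0.634). Their summed level was 3654, 2934 and 4421 CPM in control and 5109, 5180 and 4872 CPM in knockout cells. The highest control library was replicate 3, which was also the highest control library of *Ezh2* (126, 118 and 160 CPM), and the part of cell division in the *Ezh2* values was not tested. The number of proliferation genes that passed fell to 3 without knockout replicate 12 and reached 18 without control replicate 3. No share over all genes is given for these fits.

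Markers of other cells moved with the genotype as well, and their counts stand against 21.5% of all genes higher and 22.7% lower. The 6 progenitor and leukemia markers, *Kit* and *Cd34* among them, summed to 2954 to 4451 CPM in control and 1114 to 1252 CPM in knockout libraries, with 2 lower and 1 (*Itgam*) higher. Most of the drop lay in *Kit* (mean 2420 to 273 CPM) and *Cd34* (383 to 15.5 CPM). *Ptprc*, *Spi1* and *Runx1* had log2 fold changes of 0.86, 0.20 and -0.27 and did not pass with edgeR. All 9 granulocyte genes were higher in knockout cells, with summed levels of 167 to 526 CPM in control and 1030 to 3619 CPM in knockout libraries. Of 6 mast cell and basophil genes 5 were lower, from 12238 to 18709 CPM in control and from 4562 to 5077 CPM in knockout libraries. All 7 erythroid genes were higher (1430 to 2166 against 4589 to 5250 CPM). Monocyte and macrophage genes summed to 26.8 to 34.1 CPM against 39.2 to 53.6 CPM, with 1 of 6 higher. B cell genes summed to at most 1.10 CPM in control and 26.9 CPM in knockout libraries, with 4 of 4 tested higher, and T cell genes to at most 3.42 CPM in any library, with 0 of 6 tested. The 4 B cell genes cleared the count filter only through the knockout libraries, so their calls were partly built in. No marker was at 0 in all libraries of a group, while 5 of the 6 B cell and 3 of the 6 T cell markers were at 0 in at least 1 library. The part of these cells in the values of *Bmi1*, *Rnf2*, *Cbx7* and *Asxl1* was not tested.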

How the data were processed

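RNA of GFP-positive AML cells from 3 control (*WT Phf6,RE9a*) and 3 knockout (*VC Phf6,RE9a*) samples was measured, and 1 table for all was used. The authors deposited whole-number counts that were not normalized. Beside them the authors deposited FPKM, which equals the count divided by gene length and by a library size per sample. The deposited fold changes and p-values of the authors' own comparison were not used. The submitters' processing notes name Bowtie 0.12.0 and the build mm8, whereas 98.33% of the 54495 gene identifiers found in GENCODE M21 had the same start and end on GRCm38, the build given here. The counting tool and the strand setting are not given in the sources used here.

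In R 4.3.3, edgeR 4.0.16 removed low genes (filterByExpr), set TMM factors and ran the quasi-likelihood test. Its p-values were adjusted over 14169 genes after Benjamini-Hochberg, and 0.05 was the threshold. CPM were computed from TMM-scaled library sizes. Each standard error was derived from the F statistic. The procedure was also run on simulated counts with far fewer changed genes than passed in these data, so that run cannot vouch for the calls here. Shares of paralogs were compared with exact permutation tests (scipy 1.17.1). Values of 1 listed gene and the share that needs it are not reported here.

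Named genes are the 10 genes, *Phf6*, the 4 genes with the smallest p and the gene with the highest FPKM in each list, and the nearest profile to each of the 10. The genes and lists were chosen with earlier results of these data known. Alternatives were DESeq2 1.42.0, RLE size factors, no filter, a minimum of 10 counts per library, limma 3.58.1 on log2(FPKM + 1) and on log2(FPKM + 0.1), stricter thresholds, and each library left out. Total-count scaling was added after the data were seen.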

Additional observations from a re-analysis of the deposited data

How the results depend on the processing

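Over 13 alternative fits of 58 named genes, 681 values kept their direction and their side of the threshold, 40 lost the threshold, 12 gained it and 16 changed sign. DESeq2, RLE size factors, limma and the other filters turned the sign of no named gene but *Foxk2*, whose log2 fold change was 0.0086 with at least 10 counts in every library. The number of the 10 genes higher in *VC Phf6,RE9a* cells was 2 in place of 1 at total-count scaling (28.6% of all genes in place of 21.5%). With single libraries left out it ran from 1 to 2. The number lower, 3, was 3 at an adjusted p under 0.01 and 2 with at least a 1.5-fold change, which *Asxl1* did not reach. The number higher was 1 at both. Over all genes tested, 26.8% passed in either direction at an adjusted p under 0.01, and 31.8% with at least a 1.5-fold change. With single libraries left out the number lower ran from 3 to 4. For the wider lists the number higher was 12 of 60 in place of 4 at total-count scaling, against 28.6% of all genes. With single libraries left out it ran from 3 to 8. The number higher ran from 4 to 8 for the target lists (7 with all libraries) and from 3 to 18 for the proliferation genes (12 with all libraries). No share over all genes is given for fits with a library left out, so those counts have no background beside them. At total-count scaling the log2 fold change turned to 0.069 for *Ring1*, 0.038 for *Mysm1*, 0.064 for *Pcna*, 0.15 for *Foxk2*, 0.058 for *Wdr5*, 0.039 for *Lcorl* and 0.0084 for *Aebp2*. With a library left out it ran from -0.046 to 0.091 for *Eed*, from -0.026 to 0.26 for *Rbbp7* and from -0.025 to 0.13 for *Skp1a* (each lowest without *WT Phf6,RE9a* replicate 2), from -0.19 to 0.039 for *Ring1* (with 0.021 without *VC Phf6,RE9a* replicate 11) and from -0.041 to 0.034 for *Foxk2* (with 0.0030 and 0.013 without *VC Phf6,RE9a* replicates 12 and 13). The difference in the share of *Asxl1* among its paralogs ran from -2.92 to 0.998 percentage points, with 0.860 without *WT Phf6,RE9a* replicate 3. None of these sign changes was past the threshold in either fit, and the cause was not tested. With limma on log2(FPKM + 1) the log2 fold changes of genes with low levels were smaller, as the added 1 makes them, with -0.31 for *Epop*, -0.99 for *Pcgf2*, -1.26 for *Bcorl1*, 1.61 for *Hmga2*, -1.82 for *Cdkn2a* and 0.86 for *Cdkn1c*. Leaving out a library leaves 2 in its group, where an exact test of a share cannot give a p under 0.2. No paired analysis was possible because the groups share no replicate numbers. With 3 libraries a group, the widest interval among the 10 genes, that of *Cbx7*, ran from 0.77 to 1.52 on the log2 scale.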
